A study of Mus musculus with 8 samples.

Results

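The major urinary protein genes (*Mup*) make a family of small secreted lipocalins, and 10 of them were followed here: *Mup1*, *Mup2*, *Mup3*, *Mup7*, *Mup9*, *Mup11*, *Mup12*, *Mup17*, *Mup20* and *Mup21*. The members were chosen by name and are 10 of the 24940 genes in the count table, which holds another 11 rows under a *Mup* symbol. RNA-seq was run on 8 mouse livers, 4 of genotype FXRKO and 4 of genotype BCL6LKOFXRKO, all male and on the C57BL/6 strain. FXRKO livers came from mice homozygous for deletion of the bile acid receptor gene *Fxr* in the whole body and carrying floxed *Bcl6* without Cre (Bcl6(fl/fl), FXR(homo)). BCL6LKOFXRKO livers carried the same alleles plus Alb-Cre, the albumin-driven recombinase that deletes *Bcl6*, a transcriptional repressor, in hepatocytes. Both groups therefore lack *Fxr*, and the comparison measures loss of hepatocyte *Bcl6* on that background alone. Cre was present in all BCL6LKOFXRKO livers and in no FXRKO liver, so its presence cannot be told apart from loss of *Bcl6*. Cells that never expressed albumin keep an intact *Bcl6*. The age of the mice is not given in the sources used here. Livers are numbered 1 to 4 (FXRKO) and 5 to 8 (BCL6LKOFXRKO), in an order that only names them.

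MUPs are made by hepatocytes, enter the blood, pass into urine and carry small volatile pheromones in the pocket of the lipocalin fold. The adult male liver makes far more of them than the female liver, under the pulsed pattern of growth hormone that acts through STAT5, and BCL6, itself more abundant in male liver, can occupy DNA sites that STAT5 also binds. The genes lie in a tandem array on chromosome 4 in which many copies are nearly identical, so that a sequencing read from a copy often matches several others.

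The array spans 2194 kb of the mm10 genome (chr4:59956806-62150841), and all 10 members lie on the minus strand. *Mup7* lies at chr4:60066469-60070475, *Mup9* at chr4:60418046-60421952, *Mup1* at chr4:60498013-60501960, *Mup11* at chr4:60658466-60662395 and *Mup12* at chr4:60737381-60741281. *Mup17* follows at chr4:61591931-61595832, *Mup20* at chr4:62050235-62054117, *Mup3* at chr4:62083476-62087317 and *Mup21* at chr4:62147832-62150841. The row called *Mup2* covers chr4:61300019-61439702, a 140.0 kb stretch with 3 merged transcript positions that holds the rows of *Mup14* and *Mup15*. Values under the name *Mup2* below are the values of that row, and it does not cover the place where RefSeq puts *Mup2* itself (chr4:60135913-60139977).

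Pairwise identity of the transcripts, taken from the GENCODE vM21 set, separated the members into 2 sequence groups, with identity counted over aligned bases without gaps and no expression value used. *Mup1*, *Mup2*, *Mup7*, *Mup9*, *Mup11*, *Mup12* and *Mup17* were 98.3% to 99.7% identical to each other and are called the near-identical members. *Mup3*, *Mup20* and *Mup21* were 86.6% to 91.2% identical to those 7 and 88.6% to 96.1% identical to each other, with *Mup3* and *Mup21* the closest pair, and are called the divergent members. The same division was visible upstream of the genes, in windows of the 250 bases before the annotated start. Promoters of the near-identical members were 97.5% to 99.6% identical (10 pairs), against 82.9% to 89.1% between the groups (10 pairs). The pair of *Mup3* and *Mup21* was 93.4% identical. Only the stretch where 2 windows overlapped was scored, and it can be shorter than 250 bases because annotated starts differ. The first ATCAAT, described below, lies 216 bases before the start in *Mup2* and 82 in *Mup7*. RefSeq promoters (build GRCm38.p6) were matched for 7 of the 10 members, and *Mup1*, *Mup12* and *Mup20* had no entry in the table. Promoters of *Mup7*, the member that fell furthest, of *Mup17*, the near-identical member with the highest level left, and of the divergent *Mup3* and *Mup21* are printed 5′ to 3′ on the minus strand, ending at the base before the annotated start. Capitals mark ATCAAT, the core bound by ONECUT factors, and the run TATATAA.
Mup7 promoter, chr4:60070476-60070725: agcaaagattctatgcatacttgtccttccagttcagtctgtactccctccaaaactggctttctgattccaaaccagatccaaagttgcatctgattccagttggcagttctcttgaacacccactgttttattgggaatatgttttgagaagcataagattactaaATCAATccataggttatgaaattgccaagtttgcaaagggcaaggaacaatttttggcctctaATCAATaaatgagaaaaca
Mup17 promoter, chr4:61595833-61596082: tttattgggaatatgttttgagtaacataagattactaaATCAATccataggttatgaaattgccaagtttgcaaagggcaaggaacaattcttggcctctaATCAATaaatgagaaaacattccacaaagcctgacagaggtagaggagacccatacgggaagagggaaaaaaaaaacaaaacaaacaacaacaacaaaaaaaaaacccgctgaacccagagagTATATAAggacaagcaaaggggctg
Mup3 promoter, chr4:62087318-62087567: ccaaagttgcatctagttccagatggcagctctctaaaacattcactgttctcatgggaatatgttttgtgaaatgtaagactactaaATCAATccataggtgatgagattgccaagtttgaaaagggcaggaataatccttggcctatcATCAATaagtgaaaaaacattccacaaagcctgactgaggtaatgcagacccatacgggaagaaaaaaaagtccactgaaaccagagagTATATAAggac
Mup21 promoter, chr4:62150842-62151091: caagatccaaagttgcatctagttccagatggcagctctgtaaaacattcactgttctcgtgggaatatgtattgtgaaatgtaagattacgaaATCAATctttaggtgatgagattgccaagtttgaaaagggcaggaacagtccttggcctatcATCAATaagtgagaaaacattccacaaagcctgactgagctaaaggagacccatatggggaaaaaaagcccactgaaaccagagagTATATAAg

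Searched on both strands, ATCAAT occurred in all 7 member promoters and in 6.97% of the 27025 RefSeq mouse promoters of the same length. It stood 2 times in each, 63 bases apart in the 5 near-identical members and 62 bases apart in *Mup3* and *Mup21*. TATATAA, a search added once the sequences had been read, occurred in 5 of the 7 and in 3.26% of all promoters, starting 25 bases before the annotated start in *Mup17*, 11 bases in *Mup3* and 8 bases in *Mup21*. It was not in the windows of *Mup7* and *Mup11*, whose annotated starts lie further upstream relative to the rest of the sequence, and the shorter TATAAA was in none of the 7 and in 13.0% of all promoters. TTCNNNGAA, the core that STAT5 and BCL6 sites share, was in none of the 7 member windows and in 7.18% of all promoters. These are letter matches in near-copies of 1 sequence, so the 7 promoters are not independent of each other.

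The libraries held 7586241 to 11839503 counts on genes, so that 3 counts, the limit that a count of 0 allows, corresponded to 0.272 to 0.375 CPM (the normalized read count used throughout, relative to library size after TMM scaling). *Bcl6* itself stood at 56.3, 65.2, 21.2 and 55.6 CPM in FXRKO and at 11.9, 4.61, 5.55 and 7.72 CPM in BCL6LKOFXRKO livers (log2 fold change −2.72 ± 0.40 SE, edgeR adjusted p = 0.00124), and reads from exons outside the deleted part or from other cells still count. The hepatocyte markers were abundant in all 8 livers, with a summed level of 94650 to 99880 CPM in FXRKO and 203500 to 241800 CPM in BCL6LKOFXRKO, and its largest part, *Alb*, took 4.04% to 5.16% and 11.9% to 13.2% of all counts. Across the 12340 genes tested, 1665 were lower (13.5%) and 1994 higher (16.2%) in BCL6LKOFXRKO, so that 54.5% of the calls were higher. With total counts as the only scaling the median of all genes moved by −0.16 on the log2 scale and 32.3% of the calls were higher.

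The *Mup* family was almost lost. Counts on the 10 members summed to 124984, 115081, 119752 and 120611 in the FXRKO livers and to 966, 1031, 2260 and 1622 in the BCL6LKOFXRKO livers. In FXRKO they made up 1.37%, 1.52%, 1.37% and 1.20% of all gene counts, and in BCL6LKOFXRKO 0.00944%, 0.0113%, 0.0216% and 0.0137%. Every BCL6LKOFXRKO liver lay far below every FXRKO liver on this sum, although liver 7 had more than the other 3 of its group. The mean family sum was 12917 ± 1214 CPM (SD, n = 4) in FXRKO and 147 ± 52.6 CPM (SD, n = 4) in BCL6LKOFXRKO, an 87.6-fold difference that left 1.14% of the FXRKO level. In whole liver, fewer cells that make a transcript and less transcript per cell cannot be told apart. No p is given for the sum, because the members were chosen with results of these data known.

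All 10 members passed the test as lower in BCL6LKOFXRKO and 0 as higher, beside 13.5% and 16.2% of all tested genes. In all 10, all 4 BCL6LKOFXRKO livers lay below all 4 FXRKO livers, a separation found in 15.2% of all tested genes. The log2 fold changes ran from −14.95 (*Mup7*) to −5.44 (*Mup3*), while the median of all tested genes was 0.01. Only 37 tested genes had a log2 fold change under −5, and 10 of them were the members. The 10 members passed the filter on low counts, which here corresponds to about 1.041 CPM in 4 livers, but 5 of them (*Mup1*, *Mup7*, *Mup9*, *Mup11* and *Mup12*) were below it in every BCL6LKOFXRKO liver and entered the test through FXRKO alone, whereas *Mup3*, *Mup17* and *Mup20* were over it in all 4.

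**Figure D1:**
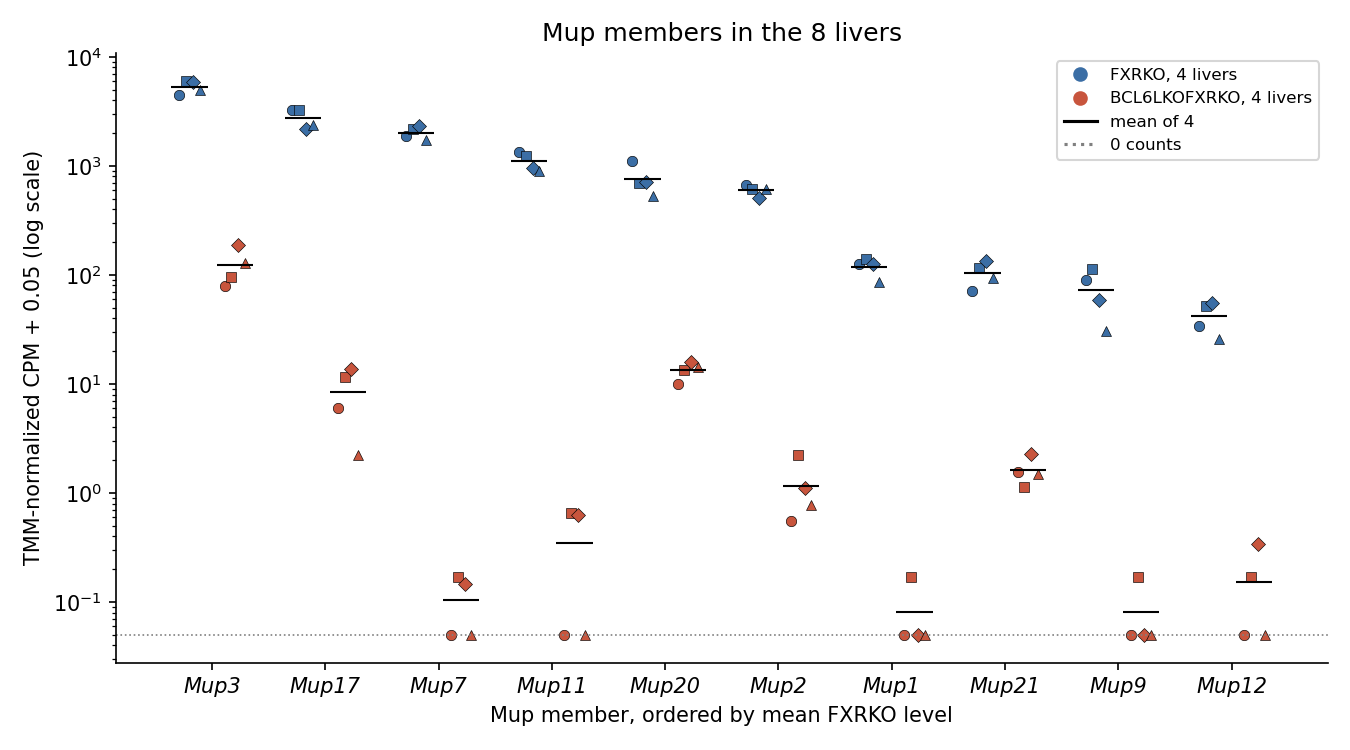
TMM-normalized CPM of each member in each of the 8 livers, plotted as CPM + 0.05 on a log axis, with a marker shape for each liver and a bar at the mean of each group of 4; the dotted line is 0 counts. The groups do not overlap for any member, *Mup3* keeps 79.4 to 186 CPM in BCL6LKOFXRKO, and *Mup1*, *Mup7*, *Mup9*, *Mup11* and *Mup12* sit at or near 0 there.

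*Mup7* showed the largest fall of all tested genes by fitted log2 fold change. It had 17936, 17323, 21499 and 18396 counts in the FXRKO livers and 0, 1, 1 and 0 counts in the BCL6LKOFXRKO livers. An abundant liver transcript was thus at the edge of detection in all 4 BCL6LKOFXRKO livers. Its mean went from 2021 ± 263 CPM to 0.0547 CPM (n = 4 each), 0.0027% of the FXRKO level (log2 fold change −14.95 ± 0.32 SE, edgeR adjusted p = 9.67e-12). With 2 counts in all in BCL6LKOFXRKO, the ratio of pooled normalized counts was 39540, with a 95% counting interval of 10950 to 326500 that covers counting error only. The SE, which was computed back from the F-test, is much narrower than this interval.

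*Mup11* and *Mup1* followed, and which of them fell more is not settled. *Mup11* had 12926, 9810, 8956 and 9536 counts in FXRKO and 0, 5, 6 and 0 counts in BCL6LKOFXRKO livers. *Mup1*, whose protein circulates in blood as well as passing into urine, had 1213, 1111, 1165 and 901 counts against 0, 1, 0 and 0. The few remaining reads lay in livers 6 and 7 for *Mup11* and in liver 6 alone for *Mup1*. *Mup11* fell from 1109 ± 211 CPM to 0.298 CPM (log2 fold change −11.88 ± 0.48 SE, edgeR adjusted p = 4.92e-08) and *Mup1* from 118.9 ± 23.3 CPM to 0.0303 CPM (−11.60 ± 0.36 SE, edgeR adjusted p = 1.99e-10). The pooled ratios were 3944 (95% counting interval 2204 to 7902) and 4620 (829 to 182500), so that the size of the *Mup1* fall is known only within a wide range. Without liver 6 the fitted value of *Mup1* was −13.19, and without liver 7 that of *Mup11* was −12.54.

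*Mup9* and *Mup12* had the lowest CPM of the members in FXRKO. *Mup9* had 858, 903, 547 and 325 counts there, and 0, 1, 0 and 0 in BCL6LKOFXRKO (log2 fold change −10.89 ± 0.80 SE, edgeR adjusted p = 2.07e-05). *Mup12* had 326, 418, 517 and 273 counts against 0, 1, 3 and 0 (−8.51 ± 0.50 SE, edgeR adjusted p = 3.46e-07). Both genes were separated between the groups although their FXRKO livers differed among themselves, with *Mup9* at 112.8 CPM in liver 2 and 30.7 CPM in liver 4. The pooled ratios were 2771 (95% counting interval 497 to 109500) for *Mup9* and 404 (157 to 1483) for *Mup12*. Without liver 6 the log2 fold change of *Mup9* was −12.49, and without liver 7 that of *Mup12* was −9.78.

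*Mup17* and *Mup2* were the near-identical members that remained countable. *Mup17*, the member with the second highest count in FXRKO, had 31058, 25787, 20182 and 25159 counts there and 59, 94, 141 and 24 counts in BCL6LKOFXRKO. The *Mup2* row had 6402, 4956, 4670 and 6529 counts against 5, 18, 11 and 8. Both kept a trace in every BCL6LKOFXRKO liver, with the lowest *Mup17* count in liver 8 and the highest in liver 7. *Mup17* fell from 2751 ± 557 to 8.32 ± 5.24 CPM (log2 fold change −8.38 ± 0.58 SE, edgeR adjusted p = 2.01e-05) and kept 0.302% of its level. *Mup2* fell from 601 ± 69.98 to 1.12 ± 0.746 CPM (−9.11 ± 0.30 SE, edgeR adjusted p = 4.41e-10) and kept 0.187%.

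The divergent members kept the most. *Mup3*, the member with the most counts in both genotypes, had 42852, 48295, 54403 and 52863 counts in FXRKO and 788, 791, 1913 and 1417 counts in BCL6LKOFXRKO. Its level went from 5336 ± 737 to 122.6 ± 47.2 CPM (log2 fold change −5.44 ± 0.27 SE, edgeR adjusted p = 4.42e-08), which left 2.30%. It was the member with the smallest fall, and it was still 32nd in size of fall among all 12340 tested genes.

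*Mup20*, known as darcin, encodes the protein that draws females to male urine marks. It had 10723, 5557, 6564 and 5639 counts in FXRKO, the highest in liver 1, and 99, 110, 162 and 157 in BCL6LKOFXRKO. Its level went from 762 ± 249 to 13.3 ± 2.46 CPM (log2 fold change −5.83 ± 0.26 SE, edgeR adjusted p = 1.12e-08), leaving 1.75%. *Mup21* had 690, 921, 1249 and 990 counts against 15, 9, 23 and 16, and went from 103.7 ± 27.0 to 1.57 ± 0.481 CPM (−6.01 ± 0.25 SE, edgeR adjusted p = 4.88e-09), leaving 1.52%. All 3 divergent members thus had counts in every BCL6LKOFXRKO liver, and their pooled ratios were narrow: 42.5 (95% counting interval 41.4 to 43.8) for *Mup3*, 56.8 (52.1 to 62.0) for *Mup20* and 64.3 (50.2 to 83.9) for *Mup21*.

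**Figure D2:**
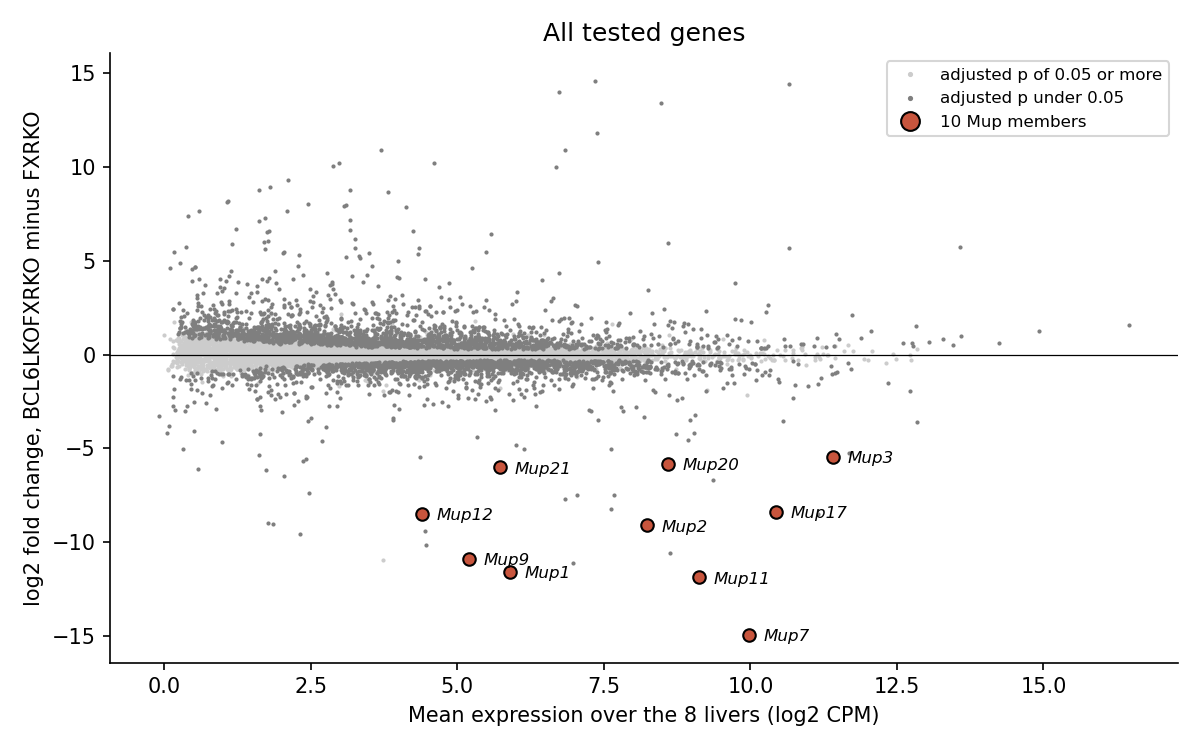
Mean expression over the 8 livers (log2 CPM, x axis) against log2 fold change (BCL6LKOFXRKO minus FXRKO, y axis) for the 12340 tested genes, with the 10 members in red and other genes shaded by whether they passed adjusted p under 0.05. All 10 members lie between −14.95 and −5.44, at the lower edge of the genes of their expression level.

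The unequal falls changed what the remaining *Mup* RNA consisted of. *Mup3* made up 34.3%, 42.0%, 45.4% and 43.8% of the family counts in FXRKO and 81.6%, 76.7%, 84.6% and 87.4% in BCL6LKOFXRKO, a rise from 41.4% ± 4.94 to 82.6% ± 4.56 (SD, n = 4). *Mup17* took 24.8%, 22.4%, 16.9% and 20.9% in FXRKO and 6.11%, 9.12%, 6.24% and 1.48% in BCL6LKOFXRKO. *Mup7* took 14.4% to 18.0% in FXRKO and at most 0.0970% in a BCL6LKOFXRKO liver. The share does not depend on library scaling, and an exact two-sided permutation test over the 70 orderings of the livers gave p = 0.029, the smallest it can give, for *Mup3*, whose share rose, and for 7 members whose share fell (*Mup1*, *Mup2*, *Mup7*, *Mup9*, *Mup11*, *Mup12* and *Mup17*). The test was run on all 10 shares, which sum to 100% in each liver, and these p-values are not adjusted for that number. *Mup1*, *Mup7*, *Mup9*, *Mup11* and *Mup12* had passed the low-count filter through FXRKO alone, so that a fall of their shares was close to fixed in advance. The members were also chosen with results of these data known. The p-values therefore describe how the shares separate and are no independent evidence. *Mup20* held 5.89% ± 1.83 in FXRKO and 9.44% ± 1.57 in BCL6LKOFXRKO (exact permutation p = 0.057), with liver 1 at 8.58% overlapping the BCL6LKOFXRKO range of 7.17% to 10.7%. *Mup21* held 0.804% ± 0.201 and 1.11% ± 0.303 (exact permutation p = 0.14), and its groups overlapped.

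**Figure D3:**
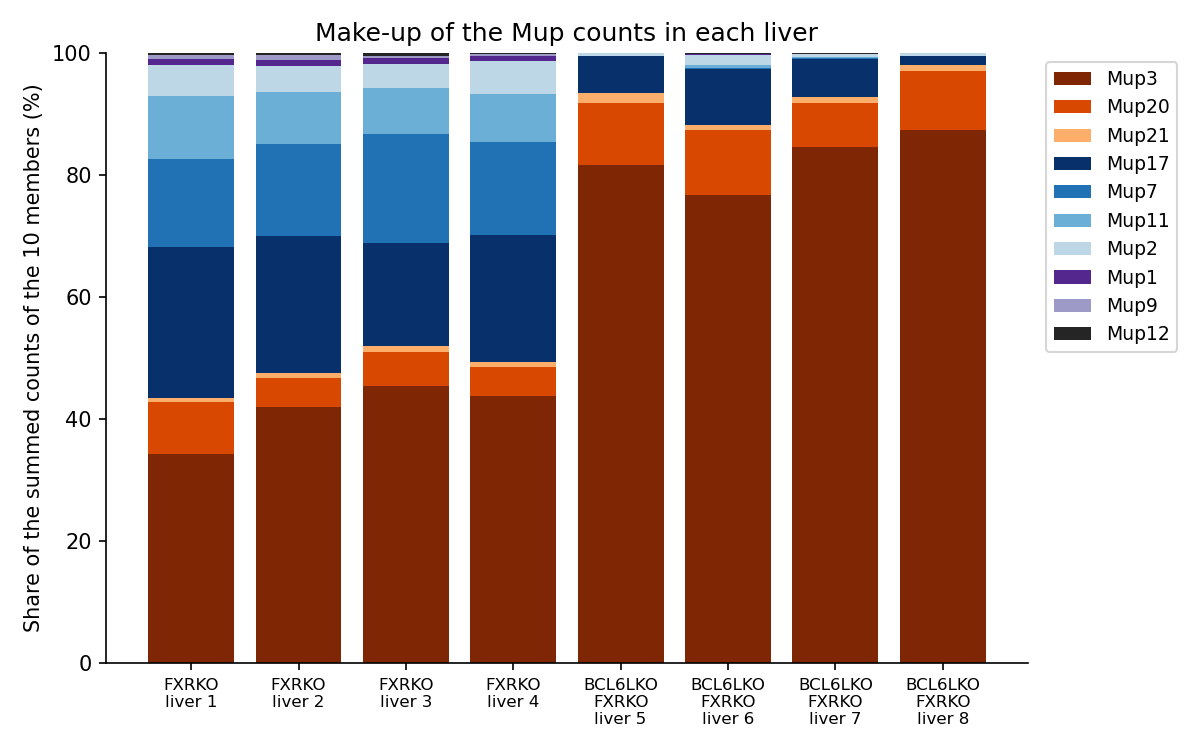
Share of the summed counts of the 10 members taken by each member (%, stacked to 100) in each of the 8 livers, divergent members in orange tones at the bottom and near-identical members above. *Mup3* fills 34.3% to 45.4% of the FXRKO bars and 76.7% to 87.4% of the BCL6LKOFXRKO bars.

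Summed by sequence group, the 7 near-identical members had 70719, 60308, 57536 and 61119 counts in FXRKO and 64, 121, 162 and 32 counts in BCL6LKOFXRKO, and the 3 divergent members 54265, 54773, 62216 and 59492 counts against 902, 910, 2098 and 1590. In FXRKO the counted sums of the groups were similar, at 6716 ± 864 and 6202 ± 654 CPM (SD, n = 4). These sums hold only reads that match 1 place. Of the 100-base windows of a transcript, 2.7% to 40.6% were unique in the near-identical members and 61.2% to 97.1% in the divergent members. The sums therefore do not compare how much RNA the groups made. In BCL6LKOFXRKO the group sums stood at 9.95 ± 6.28 and 137.5 ± 49.8 CPM, that is 0.148% and 2.22% of FXRKO. The ranges of the single members did not meet: the near-identical members kept 0.0027% to 0.302% and the divergent members 1.52% to 2.30%. The divergent members rose from 48.1% ± 3.58 of the family counts to 93.1% ± 3.99.

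Sequence uniqueness also decides which reads could be counted, since the authors kept only reads with 1 genomic location. Of all 100-base windows of each transcript, the length of the reads, 97.1% of *Mup3*, 95.5% of *Mup21* and 61.2% of *Mup20* occurred in the transcripts of no other gene. Among the near-identical members the share was 40.6% for *Mup17*, 22.5% for *Mup12*, 16.5% for *Mup11*, 14.9% for *Mup9*, 12.9% for *Mup7*, 12.8% for *Mup1* and 2.7% for *Mup2*. *Mup1* shared 75.4% of its windows with *Mup12*, *Mup9* shared 77.1% with *Mup19*, and *Mup20* shared its 38.8% with the pseudogene *Mup-ps19*. Across 9 members, with *Mup2* left out because its row was counted at other loci, the unique share and the percentage of the level left had a Spearman rho of 0.95, and the FXRKO level per kilobase and the percentage left 0.27. The places of *Mup1* and *Mup9* in this order rest on 1 count each in BCL6LKOFXRKO. Those of *Mup7*, *Mup12* and *Mup11* rest on 2, 4 and 11 counts over the 4 livers. Some rows outside the members went against it. *Mup19* and *Gm21320* (*Mup22* in RefSeq) had 0 unique windows and kept 4.58% and 3.46% on a few counts. *Mup10* (14.6% unique) and *Mup13* (17.7%) kept 4.59% and 3.38%, and *Mup6* (100.0%) kept 0.942%, also on a few counts. Of the abundant rows, *Mup18* (12.9% unique) and *Mup16* (19.9%) kept 0.577% and 0.474%, more than any near-identical member. *Mup14* (8.6%) and *Mup15* (2.7%) kept 0.070% and 0.193%. These are descriptions over genes that share the same 8 libraries and, in part, the same reads, and whether the uncounted reads fell alike was not tested.

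**Figure D4:**
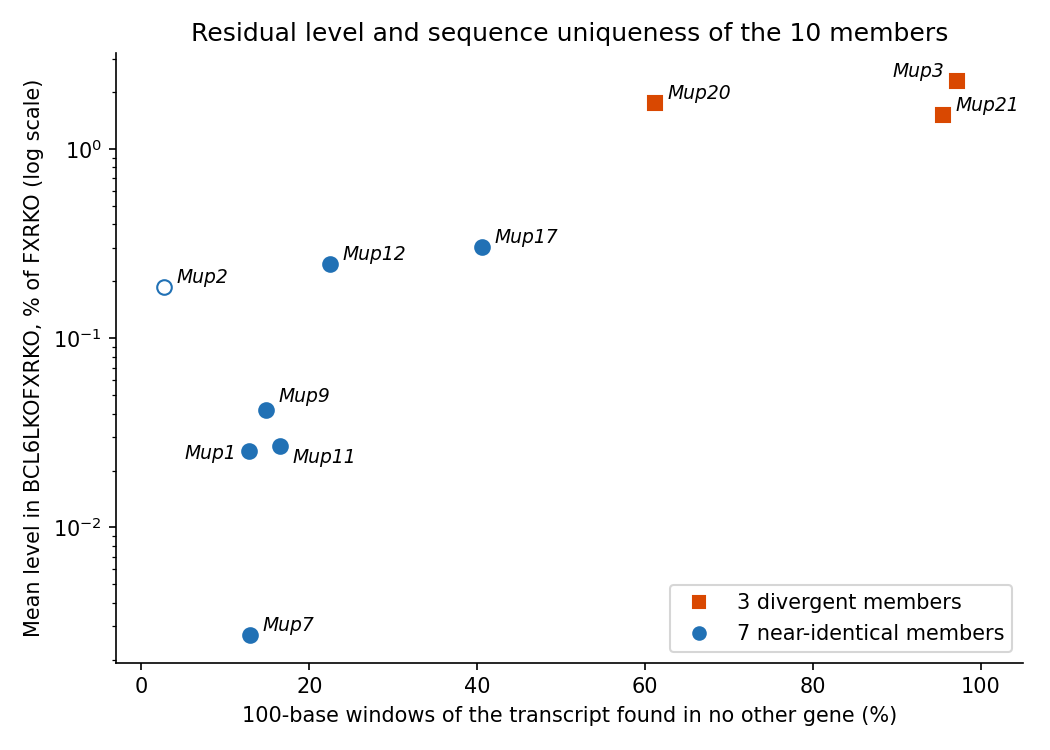
Percentage of the 100-base windows of each member's transcript that occur in no other gene (x axis) against its mean level in BCL6LKOFXRKO as a percentage of FXRKO (y axis, log scale), squares for the 3 divergent and circles for the 7 near-identical members; the open circle is *Mup2*, whose row was counted at other loci. The divergent members lie at 61.2% to 97.1% unique windows with 1.52% to 2.30% of the level left, and *Mup7* lies lowest at 0.0027%.

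The order of the members in FXRKO depended on the same property. In mean RPKM, the CPM per kilobase of transcript, it ran *Mup3* (5695), *Mup17* (3137), *Mup7* (2056), *Mup11* (1225), *Mup20* (869), *Mup2* (671), *Mup21* (139), *Mup1* (130), *Mup9* (83.5) and *Mup12* (47.9). Per 100 windows that match a single gene, *Mup7* came to 1888 CPM, *Mup17* to 819, *Mup11* to 809, *Mup3* to 621, *Mup20* to 150, *Mup1* to 112, *Mup9* to 64.0, *Mup12* to 22.5 and *Mup21* to 18.8 CPM. *Mup3* thus led by length and stood behind *Mup7*, *Mup17* and *Mup11* by countable windows, while *Mup7* was lower than *Mup3* in every FXRKO liver in counts. *Mup2* is left out of the second order because its row was counted at other loci. In BCL6LKOFXRKO, *Mup3* led on both scales, with 131 RPKM against 15.2 for *Mup20* and 14.3 against 2.63 CPM per 100 such windows.

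Among the FXRKO livers the members did not vary as 1 block. The coefficient of variation ran from 11.6% for *Mup2* to 49.1% for *Mup9*, and livers 1 and 2 were high for *Mup9* and *Mup17* while livers 2 and 3 were high for *Mup3*, *Mup7*, *Mup12* and *Mup21*. *Mup20* was highest in liver 1, at 0.60 above its mean on the log2 scale. Liver 4 was below the mean for 9 members, with *Mup2* the exception. In BCL6LKOFXRKO, liver 7 was the highest of the 4 for *Mup3*, *Mup17*, *Mup20* and *Mup21*, and liver 6 for *Mup2*.

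The other *Mup* rows that could be tested also fell. Of the 11 other symbols, 7 were tested and all 7 were lower (13.5% of all tested genes were). *Mup14* went from 791.6 to 0.554 CPM (log2 fold change −10.56 ± 0.49 SE, edgeR adjusted p = 2.82e-07) and *Mup15* from 635 to 1.22 CPM (−9.06 ± 0.31 SE, edgeR adjusted p = 1.25e-09). *Mup16* went from 227 to 1.08 CPM (−7.69 ± 0.25 SE) and *Mup18* from 406 to 2.34 CPM (−7.47 ± 0.51 SE). These 4 were the abundant rows outside the members, and they kept 0.070% (*Mup14*), 0.193% (*Mup15*), 0.474% (*Mup16*) and 0.577% (*Mup18*), the last 2 above the near-identical members and below the divergent ones. *Mup8* had 66, 63, 64 and 63 counts in FXRKO and 0 in each BCL6LKOFXRKO liver, where 3 counts are the limit that 0 allows. *Mup6* went from 2.59 to 0.0243 CPM and kept 0.942%. *Mup19* had 10, 19, 14 and 17 counts in FXRKO and 2, 0, 1 and 0 in BCL6LKOFXRKO, and kept 4.58%, more than any member (log2 fold change −4.19 ± 0.62 SE, edgeR adjusted p = 0.000278). *Mup10*, *Mup13* and *Mup5* were too low to be tested, at 1.21, 0.897 and 0.210 CPM in FXRKO; the first 2 kept 4.59% and 3.38%, each on at most 2 counts over the BCL6LKOFXRKO livers, and *Mup5* had 0 counts there. *Mup4*, known from glands outside the liver, had 0 counts in all 8 livers.

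Several of these rows share reads. The *Mup2* row held 92.9% to 96.5% as many counts as the *Mup15* row in the FXRKO livers, so that these rows are not independent measurements. A row named *Gm2083*, laid over 6 positions in the array, held 99.0% to 100.1% of the summed counts of *Mup11*, *Mup12*, *Mup16*, *Mup17*, *Mup18* and *Mup19* in FXRKO and was kept out of the family sum for that reason. The row named *Gm21320*, which RefSeq lists as *Mup22*, went from 3.50 to 0.121 CPM (log2 fold change −4.65 ± 0.47 SE, edgeR adjusted p = 1.09e-05) on 1, 0, 3 and 1 counts in BCL6LKOFXRKO and kept 3.46%.

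Genes flanking the array did not show falls of this size. Midpoints of the members lie 112 kb (*Mup7*) to 2193 kb (*Mup21*) from its start, and the 3 divergent members are its last 3, from 2095 kb on. The 10 tested genes nearest on each side had log2 fold changes between −0.60 and 0.96. On the proximal side edgeR, DESeq2 and limma called 0 lower and 1 higher (1 was lower at an unadjusted p under 0.05 and 1 was called lower with total counts as the only scaling), and on the distal side edgeR called 2 lower and 1 higher. Among all tested genes 13.5% were lower and 16.2% higher, so these counts on 10 genes a side are near the background. *Snx30*, which codes for a sorting nexin, rose from 8.06 to 15.6 CPM (log2 fold change 0.96 ± 0.18 SE, edgeR adjusted p = 0.00131) and *Fkbp15* from 38.3 to 54.3 CPM (0.51 ± 0.11 SE, edgeR adjusted p = 0.00494). *Prpf4*, a splicing factor gene, went from 17.4 to 11.5 CPM (−0.60 ± 0.13 SE, edgeR adjusted p = 0.00478) and *Slc31a1*, a copper transporter gene, from 243 to 183 CPM (−0.41 ± 0.12 SE, edgeR adjusted p = 0.0256).

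**Figure D5:**
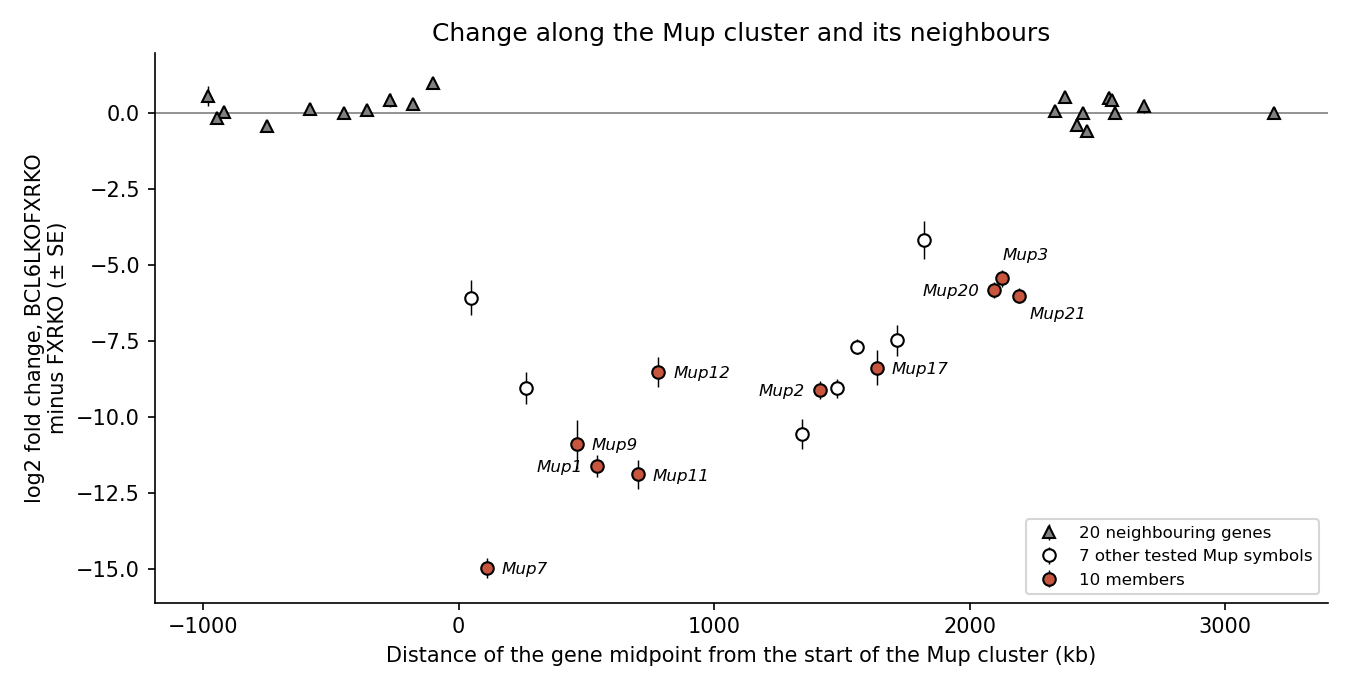
log2 fold change (BCL6LKOFXRKO minus FXRKO, with SE bars) of the 10 members, the 7 other tested *Mup* symbols and the 10 nearest tested genes on each side, against the distance of each gene's midpoint from the start of the array (kb). Members lie between −14.95 and −5.44 and the neighbours between −0.60 and 0.96; *Mup2* is drawn at the midpoint of its row.

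Relatives of the MUPs outside the array were counted in the same way. Of 8 tested lipocalin genes, edgeR, DESeq2 and limma called 0 lower (also 0 at an unadjusted p under 0.05) and 1 higher, while with total counts as the only scaling 1 was lower and 0 higher. Over all tested genes 13.5% were lower and 16.2% higher, so these counts on 8 genes are near the background. Their median log2 fold change was 0.09. The gene that rose was *Apom*, the carrier of sphingosine 1-phosphate on lipoproteins, at 287, 262, 270 and 290 CPM in FXRKO and 315, 438, 345 and 524 CPM in BCL6LKOFXRKO (log2 fold change 0.55 ± 0.15 SE, edgeR adjusted p = 0.0162). *Ambp*, named after its values were seen and also a neighbour on the distal side, had means of 2576 and 2565 CPM.

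Other genes with male-biased expression in liver fell as a group. Of 17 listed, all of them tested, edgeR called 16 lower, against 13.5% of all tested genes, and 0 higher (1 at an unadjusted p under 0.05, 1 with DESeq2 and 0 with limma). The median of their log2 fold changes was −5.22. *Hsd3b5*, a steroid dehydrogenase gene, went from 251 to 0.109 CPM (log2 fold change −11.10 ± 0.35 SE, edgeR adjusted p = 2.43e-10). *Slco1a1*, an organic anion transporter gene, went from 261 to 1.48 CPM (−7.50 ± 0.26 SE, edgeR adjusted p = 7.85e-10). *Cyp4a12b*, a fatty acid hydroxylase gene, went from 10.8 to 0.0530 CPM (−7.40 ± 0.48 SE, edgeR adjusted p = 1.76e-07).

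A list of growth hormone and STAT5 pathway genes and other regulators of *Mup* genes held 23 tested genes. Of these, 6 were lower, 5 higher and 12 did not pass the test, beside 13.5% lower and 16.2% higher among all tested genes. The 6 include *Bcl6*, whose fall was set by the design. The median of the 23 log2 fold changes was −0.10. *Ghr*, the growth hormone receptor gene, stood at 373, 412, 458 and 441 CPM in FXRKO and 2207, 1984, 2350 and 1571 CPM in BCL6LKOFXRKO (log2 fold change 2.27 ± 0.15 SE, edgeR adjusted p = 2.1e-07). *Cux2*, a repressor that is female-biased in mouse liver, stood at 0.312, 0.375, 2.15 and 4.73 CPM against 70.6, 96.5, 96.6 and 85.6 CPM (5.45 ± 0.56 SE, edgeR adjusted p = 0.000242). *Trim24* rose from 23.2 to 54.2 CPM (1.22 ± 0.14 SE, edgeR adjusted p = 4.29e-05). For *Ghr*, *Cux2* and *Trim24*, all 4 BCL6LKOFXRKO livers lay above all 4 FXRKO livers. Besides *Bcl6*, the pioneer factor gene *Foxa1* fell from 16.5 to 5.37 CPM (−1.64 ± 0.25 SE, edgeR adjusted p = 0.000405) and the thyroid hormone receptor gene *Thrb* from 22.7 to 11.8 CPM (−0.94 ± 0.19 SE, edgeR adjusted p = 0.00265). *Stat5b*, *Stat5a* and *Onecut1*, named after their values were seen, did not pass, with log2 fold changes of −0.06 ± 0.16, −0.10 ± 0.22 and 0.05 ± 0.55 SE. The other called genes of the list are also named after their values were seen. *Zhx2*, *Cebpa* and *Cebpb* were lower (log2 fold changes −0.85, −0.70 and −0.62), and *Socs2* and *Esr1* higher (1.67 and 1.22).

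Markers of liver cells were read beside these results. Of the hepatocyte markers, 5 of 11 were higher (*Alb*, *Trf* and *Asgr1* with the smallest adjusted p) and 2 lower (*Ttr* and *Apob*). All tested genes were higher in 16.2% and lower in 13.5%, and the 2 lower calls are close to the latter share. Higher calls were made for 2 of 4 tested cholangiocyte markers (*Spp1* and *Krt19*), 5 of 8 stellate cell and fibroblast markers (led by *Dcn*, *Pdgfrb* and *Reln*), 1 of 6 macrophage markers (*Cd68*), 1 of 6 endothelial markers (*Stab2*) and the 1 tested lymphocyte marker (*Ptprc*), beside 16.2% of all tested genes, a share that the macrophage and endothelial lists are close to. Among the marker lists other than that of hepatocytes, edgeR, DESeq2 and limma called 0 of the 25 tested genes lower (1 at an unadjusted p under 0.05, and 1 with total counts as the only scaling), beside 13.5% of all tested genes. Summed over each list, the cholangiocyte level was 42.2 to 67.1 CPM in FXRKO and 75.4 to 135.9 CPM in BCL6LKOFXRKO, most of it *Spp1* (means 43.4 and 87.2 CPM) while *Sox9*, named after its values were seen, had means of 4.37 and 2.52 CPM, the stellate level 205 to 287 and 412 to 523 CPM, the macrophage level 241 to 312 and 295 to 484 CPM, the endothelial level 133 to 185 and 173 to 230.0 CPM, and the lymphocyte level 7.76 to 10.7 and 13.2 to 19.5 CPM. None of these markers was at 0 in every liver. All *Mup* members fell while the summed hepatocyte marker level was higher in every BCL6LKOFXRKO liver. Most of the rise of that sum was *Alb* (means 44554 and 135490 CPM) and *Trf* (18413 and 44211 CPM). Read after their values were seen, *Asgr1*, *Hpx*, *Serpinc1* and *Tat* also had higher means, and *Ttr*, *Apob*, *Cps1*, *Fgb* and *Apoa1* lower ones. The part of cell composition in the *Mup* result was not tested.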

How the data were processed

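RNA-seq libraries (TruSeq Stranded mRNA, 100-base single reads) from 4 FXRKO and 4 BCL6LKOFXRKO livers were analysed from 1 table of counts. Per the labels and the study's methods, alignment by the authors used STAR 2.5.2 on mm10, where a read had to map to 1 place with no more than 4 mismatches, and the deposited counts, which are not normalized, were made with HOMER 4.10 over exons of RefSeq genes with transcripts of a gene condensed; no strand option is named, so antisense reads may be included. Reads that match several *Mup* copies equally were therefore lost, and overlapping rows could count a read more than 1 time. The total on genes was 7586241 to 11839503 counts per library, and intervals cover counting error only.

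Genes passing filterByExpr (12340 of 24940) were fitted with edgeR 4.0.16 (R 4.3.3; TMM, robust quasi-likelihood F-test, no covariate), with Benjamini-Hochberg adjustment over all tested genes and a threshold of 0.05. The fit was tested on simulated data. The SE was computed back from the F-test, as the absolute log2 fold change over the square root of F. For *Mup1*, *Mup7* and *Mup9* it is much narrower than the counting interval. Shares of the family counts were compared by an exact two-sided permutation test. DESeq2 1.42.0, limma 3.58.1 (voom), other scalings and filters, and each liver left out in turn were alternatives. RPKM used the transcript length in the table. Transcripts came from GENCODE vM21 (9 of 10 members matched by RefSeq identifier, *Mup3* by the longest transcript), were aligned with Biopython 1.88 and grouped at 98% identity, and promoters came from RefSeq.

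The members and the gene lists were chosen with earlier results of these data known. Named genes were all 10 members, every other *Mup* symbol, and in each other list up to 3 genes per direction with the smallest adjusted p. Labels name separate libraries but no cultures or litters, so p-values measure the spread between these livers. Between libraries, chi-square per degree of freedom was at least 10.9, so none was a copy of another.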

Additional observations from a re-analysis of the deposited data

Results flagged for a closer look

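Of 34 groups of 4 livers examined for a member's share or level, 2 had a liver far from the other 3 by Dixon's ratio, where about 1.7 would stand apart by chance. *Mup1* made up 0.747% of the family counts in FXRKO liver 4, against 0.965% to 0.973% in the other 3 FXRKO livers (gap over range 0.967). The *Mup2* row made up 1.75% of the family counts in BCL6LKOFXRKO liver 6, against 0.487% to 0.518% in the other 3 BCL6LKOFXRKO livers (gap over range 0.975), where it rests on 18 counts in liver 6 and 5 to 11 in the others.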

How the results depend on the processing

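All 10 log2 fold changes of the members stayed negative and past the threshold in the 143 values that the alternatives gave, with the highest adjusted p at 0.0027 for *Mup9*. The range was −15.47 to −14.45 for *Mup7* and −5.72 to −5.28 for *Mup3*, and widest for *Mup1* (−13.19 to −10.78), *Mup9* (−12.49 to −9.98), *Mup12* (−9.78 to −8.09) and *Mup11* (−12.57 to −11.43), whose lowest values came without liver 6 (*Mup1*, *Mup9*), without liver 7 (*Mup12*) and with limma (*Mup11*). Requiring at least 10 counts in every liver left 3 members in the test, all called lower, since the other 7 have fewer counts in a BCL6LKOFXRKO liver. Without *Mup3*, an alternative added after seeing the data, the log2 ratio of the family sum was −8.25 in place of −6.45; the other 13 alternatives, among them each liver left out and a second added later (all *Mup* symbols and *Gm21320* without the *Mup2* row), gave −6.71 to −6.30. With total counts as the only scaling, 2949 genes were lower in place of 1665, 1 lipocalin gene was lower and 0 higher in place of 0 and 1, and 1 cholangiocyte marker and 1 proximal neighbour were lower in place of 0; the median of all genes moved by −0.16 there. With DESeq2, 1 male-biased gene was higher in place of 0, 8 stellate markers in place of 5 and 2 macrophage markers in place of 1; the cause was not tested. No paired analysis was possible because the labels number the libraries without giving the genotypes a shared replicate number, litter or day. Depth limits *Mup1*, *Mup7*, *Mup9*, *Mup11* and *Mup12* in BCL6LKOFXRKO, where 0 to 6 counts per liver set the size of the fall.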
